A study of Mus musculus with 6 samples.

Results

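Small leucine-rich proteoglycans are secreted proteins built on a curved stack of leucine-rich repeats, many of which carry chondroitin, dermatan or keratan sulfate chains. They bind collagen fibrils and set their diameter and spacing, and several of them hold growth factors of the TGF-beta family or engage cell surface receptors. In the embryonic heart such matrix genes are mostly a product of mesenchymal cells of the epicardium, valves and connective tissue rather than of heart muscle. The set described here holds 8 of these proteoglycan genes (Dcn, Bgn, Aspn, Lum, Fmod, Omd, Prelp and Ogn) together with Dpt, which encodes dermatopontin, a small tyrosine-rich matrix protein that binds decorin and collagen and is not itself a proteoglycan. The 9 genes were picked by symbol from the 30631 genes listed in each library, and the grouping was chosen from earlier results on these same libraries, namely the difference between the labelled groups and the distance of 1 wild-type library from the other two. Those 2 differences are therefore given as descriptions.

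The libraries came from mouse embryonic stem cells differentiated in hanging drops toward sinoatrial node-like cardiomyocytes and sorted for CD166, the surface protein encoded by Alcam, at stage 7+1 days. The groups were 3 libraries labelled wild type and 3 labelled knockout (Shox2-/-), with no treatment named for either. All clones had been expanded on mouse embryonic fibroblasts. The titles of the libraries labelled wild type carry 3 different clone-like prefixes and, in libraries 1 and 2, the Diff number 9, with another in library 3, while those labelled knockout share a single prefix and carry the Diff numbers 7, 8 and 9, so that a difference between groups and a difference between clones cannot be told apart. Neither the meaning of these numbers nor the way the allele was made is given in the sources used here, and no label says that samples of a group were separate cultures, so the spread between them may be technical.

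Between 13504683 and 34650564 reads per library were assigned to genes, with library 1 of each group the shallowest. Shox2 itself was at 89.6, 83.4 and 31.4 normalized counts under the wild-type label (libraries 1, 2 and 3 in that order), against 201, 548 and 373 in those labelled knockout, higher under the knockout label, so every direction below is one between labels. Alcam was at 6591, 6526 and 5841 under the wild-type label, against 4176, 5312 and 4304 under the knockout label. The heart muscle troponin gene Tnnt2 ranged from 1332 to 2902 and the pacemaker channel gene Hcn4 from 79.3 to 306 over the 6 libraries, so markers of the labelled cell type were present. Fibroblast genes were present too: the 18 markers of fibroblasts and mesenchyme summed to between 259111 and 657742 normalized counts, the 9 of cardiomyocytes to between 11613 and 38854. Because these are bulk libraries, more cells of a matrix-producing type and more RNA per cell cannot be told apart in any value below.

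The most visible feature of the set was library 3 labelled wild type, which carries a Diff number of its own. Summed over the 9 genes it held 47590 normalized counts, against 11690 and 11819 in the other two with that label and 3298, 8507 and 10795 in libraries 1, 2 and 3 labelled knockout. As a share of all counts this was 0.203% in library 3 labelled wild type and 0.0138% to 0.0523% in the other 5. For 7 of the genes the highest value was in that library: Ogn, Dcn, Lum, Bgn, Fmod, Aspn and Dpt. Omd was lower there than in libraries 1 and 2. So was the value of Prelp, but on 3, 7 and 3 reads in libraries 1, 2 and 3, too few to show a difference.

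**Figure D1:**
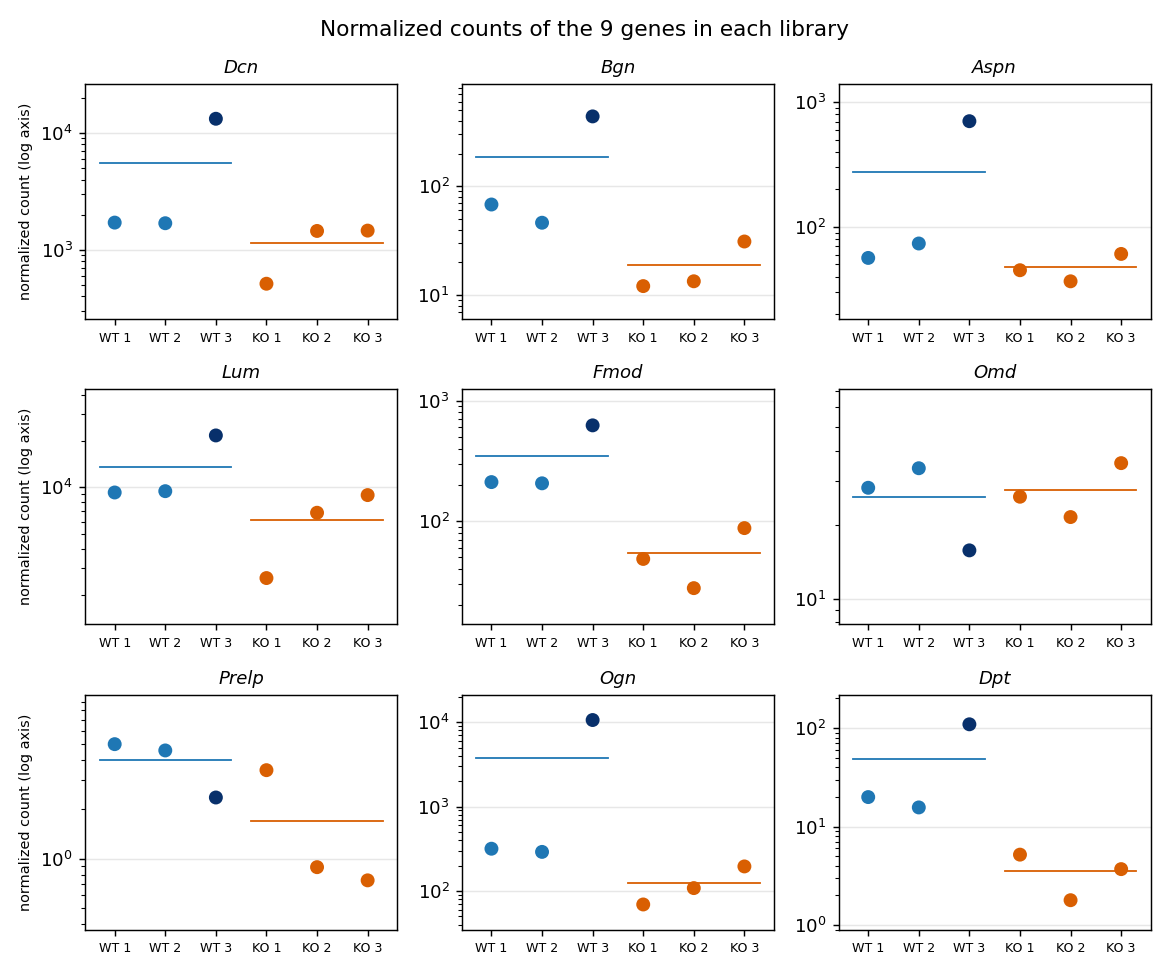
Normalized counts (log axis) of the 9 genes in the 3 libraries labelled wild type (WT, blue, library 3 in dark blue) and the 3 labelled knockout (KO, orange), with horizontal lines at the group means. Library 3 labelled wild type is the highest point for Dcn, Bgn, Aspn, Lum, Fmod, Ogn and Dpt, and the lowest for Omd.

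Among the class I genes, Dcn encodes decorin, which carries a single glycosaminoglycan chain, coats collagen fibrils and binds TGF-beta. Dcn (ENSMUSG00000019929; mm10 chromosome 10, 97479609 to 97518143, plus strand) was at 1711, 1690 and 13277 normalized counts under the wild-type label (libraries 1, 2 and 3 in that order), against 512, 1451 and 1461 in those labelled knockout. Library 3 labelled wild type stood 7.81-fold above the mean of libraries 1 and 2, while libraries 2 and 3 labelled knockout lay close below that mean and library 1 labelled knockout far below it. The groups did not overlap, with a log2 change of -1.71 (SE 0.82) on the log2(value + 1) scale, and of -0.73 without library 3 labelled wild type.

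Bgn encodes biglycan, the nearest relative of decorin, which carries a pair of chains and also acts as a signal for innate immune receptors. Bgn (ENSMUSG00000031375; chromosome X, 73483602 to 73495933, plus strand) was far lower, at 68.0, 46.3 and 439 in libraries labelled wild type and 12.1, 13.4 and 31.1 in those labelled knockout. Every value labelled knockout lay below every value labelled wild type (log2 change -2.63, SE 0.82; -1.65 without library 3 labelled wild type). The values labelled knockout stood for only 7, 15 and 42 reads, and those labelled wild type for 41, 71 and 559. Aspn, asporin, lacks the chain attachment of its relatives, competes with decorin for collagen and restrains TGF-beta. Aspn (ENSMUSG00000021388; chromosome 13, 49544443 to 49567565, plus strand) was at 56.4, 73.7 and 704 in libraries labelled wild type and 44.98, 36.7 and 60.7 in those labelled knockout. Its one high value was in library 3 labelled wild type, 10.8-fold over the mean of the other two, and outside that library the groups overlapped, since library 3 labelled knockout lay above library 1 labelled wild type. The log2 change of Aspn was -1.61 (SE 0.88), and -0.46 without library 3 labelled wild type.

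Lum was the most abundant gene of the set. It encodes lumican, a class II keratan sulfate proteoglycan of cornea, skin and developing heart matrix that regulates fibril assembly. Lum (ENSMUSG00000036446; chromosome 10, 97565128 to 97572703, plus strand) was at 9273, 9458 and 21781 in libraries labelled wild type, against 2576, 6847 and 8919 in those labelled knockout. Library 3 labelled wild type was 2.33-fold above the mean of libraries 1 and 2, the smallest excess among the 7 genes that were highest there. Library 3 labelled knockout was only slightly below libraries 1 and 2 labelled wild type. The log2 change between groups was -1.20 (SE 0.51), -0.79 when library 3 labelled wild type was left out and -0.67 when library 1 labelled knockout was.

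Fmod encodes fibromodulin, another class II member, which competes with lumican for a site on collagen and is needed for tendon fibrils. Fmod (ENSMUSG00000041559; chromosome 1, 134037254 to 134048277, plus strand) was at 211, 206 and 624 in libraries labelled wild type, against 48.4, 27.7 and 87.4 in those labelled knockout. All 3 values labelled knockout were well below the lowest labelled wild type, including library 3 labelled knockout, whose title carries Diff9 like those of libraries 1 and 2 labelled wild type. The change was -2.59 (SE 0.55), and it stayed at -2.06 without library 3 labelled wild type.

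The other two class II genes were low. Omd encodes osteomodulin, an acidic keratan sulfate proteoglycan of mineralised tissue. Omd (ENSMUSG00000048368; chromosome 13, 49582462 to 49592822, plus strand) was at 28.2, 33.9 and 15.7 in libraries labelled wild type and 25.9, 21.4 and 35.6 in those labelled knockout, so the groups overlapped. The 20 reads behind the value of library 3 labelled wild type have an exact 95% Poisson interval of 12.2 to 30.9 reads (intervals cover counting error only). Its log2 change was 0.13 (SE 0.38), with an interval from -0.76 to 1.01, and -0.19 without library 3 labelled wild type. Prelp, which encodes a basic proteoglycan that ties basement membranes to connective tissue (ENSMUSG00000041577; chromosome 1, 133910304 to 133921414, minus strand), rested on 3, 7 and 3 reads in libraries labelled wild type, against 2, 1 and 1 in those labelled knockout. It did not pass the filter on low values, and at this depth no difference was detectable: a single read has an exact 95% Poisson interval of 0.0253 to 5.57.

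Ogn, the single class III gene of the set, showed the widest range. It encodes osteoglycin, also called mimecan, a matrix protein of bone, vessel wall and cardiac stroma. Ogn (ENSMUSG00000021390; chromosome 13, 49608046 to 49624501, plus strand) was at 317, 291 and 10639 in libraries labelled wild type, against 69.2, 108 and 195 in those labelled knockout. The log2 change of Ogn between groups was -3.12 (SE 1.31), and -1.41 without library 3 labelled wild type. Its value in library 3 labelled wild type was 35.0-fold above the mean of libraries 1 and 2, and rested on 13551 reads. On the log2(value + 1) scale this difference was the third highest of 17034 tested genes. The 2 genes above it were Slc26a7, an anion exchanger gene chosen after its values were seen (1.66 and 7.17 in libraries 1 and 2, 186 in library 3), and Fap, which encodes fibroblast activation protein (14.9 and 10.4 in libraries 1 and 2, 472 in library 3).

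Dpt carried few reads. Dermatopontin speeds collagen fibril formation and enhances the action of TGF-beta together with decorin. Dpt (ENSMUSG00000026574; chromosome 1, 164796644 to 164824266, plus strand) was at 19.9, 15.6 and 109 in libraries labelled wild type, against 5.19, 1.79 and 3.70 in those labelled knockout. The values labelled knockout stood for 3, 2 and 5 reads, with exact 95% Poisson intervals of 0.619 to 8.77, 0.242 to 7.22 and 1.62 to 11.7 reads. Those labelled wild type stood for 12, 24 and 139 reads. Dpt passed the filter only through the libraries labelled wild type, so it had to be lower in the others. Its log2 change was -2.96 (SE 0.75), and -2.11 without library 3 labelled wild type.

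Between the labelled groups, 8 of the 9 genes could be tested, and 0 of 8 passed an adjusted p of 0.05 in limma, as did 0% of the 17034 tested genes. The limma adjusted p of the 8 lay between 0.205 for Fmod and 0.898 for Omd. At an unadjusted p under 0.05, 5 of the 8 were lower in the libraries labelled knockout (Ogn, Lum, Bgn, Fmod and Dpt), against 7.23% of all tested genes. In other settings that count is followed in brackets by the same count over all 17034 tested genes. Without library 1, 2 or 3 labelled knockout it was 2 (814), 3 (1418) and 4 (1215). Without library 1, 2 or 3 labelled wild type it was 7 (894), 6 (918) and 4 (1236). It was 7 (908) with the mean of libraries 1 and 2 labelled wild type as 1 sample, and 2 (1169) in limma voom on recovered reads. Groups did not overlap, with the lower values labelled knockout, for 6 of the 8 (Ogn, Dcn, Lum, Bgn, Fmod and Dpt), against 10.8% of all tested genes. The genes were chosen by this contrast, and Dpt had to be lower, so nothing is read from these counts. The median log2 change of the 8 was -2.15, beside 0.01 over all tested genes.

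Much of that median came with 1 library. Without library 3 labelled wild type the median was -1.10, with 7 of 8 genes closer to 0 and Omd crossing to -0.19. The 3 libraries with Diff9 in their titles allow a further comparison, with 1 library labelled knockout against 2 labelled wild type and therefore no test. In it the 8 genes had a median difference of -0.43, beside 0.02 over all tested genes. Lum (-0.07), Aspn (-0.08) and Dcn (-0.22) were nearly level, Ogn (-0.63) and Bgn (-0.83) were lower, and Fmod (-1.24) and Dpt (-1.99) were lowest, while Omd (0.20) was higher. Of the 8, 2 (Fmod and Dpt) were at least 2-fold lower there, against 3.97% of tested genes. Dpt had passed the filter only through the libraries labelled wild type and stood at 5 reads in library 3 labelled knockout. Nothing is therefore read from this count.

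The distance of library 3 from libraries 1 and 2 labelled wild type, also a value the genes were chosen by, is given beside that of all genes. Of the 8 tested genes, 7 were at least 2-fold higher in library 3, where 5.15% of tested genes were, and 5 were at least 4-fold higher, where 1.26% were. The median difference of the 8 was 2.75 on the log2 scale, beside 0.01 over all tested genes, whose middle 90% lay between -0.95 and 1.02. The ratio of library 1 to library 2 lay between 0.766 (Aspn) and 1.47 (Bgn) over the 9 genes. The ratio of 1.47 for Bgn came from 41 and 71 reads. The composition of the set differed too: Lum made up 79.3% and 80.0% of the summed counts in libraries 1 and 2 and 45.8% in library 3, while Ogn made up 2.71%, 2.46% and 22.4%. Lum held 78.1% to 82.6% and Ogn 1.27% to 2.10% in the libraries labelled knockout. The share of Lum there was near that in libraries 1 and 2 and the share of Ogn below it, while the sums were lower.

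**Figure D2:**
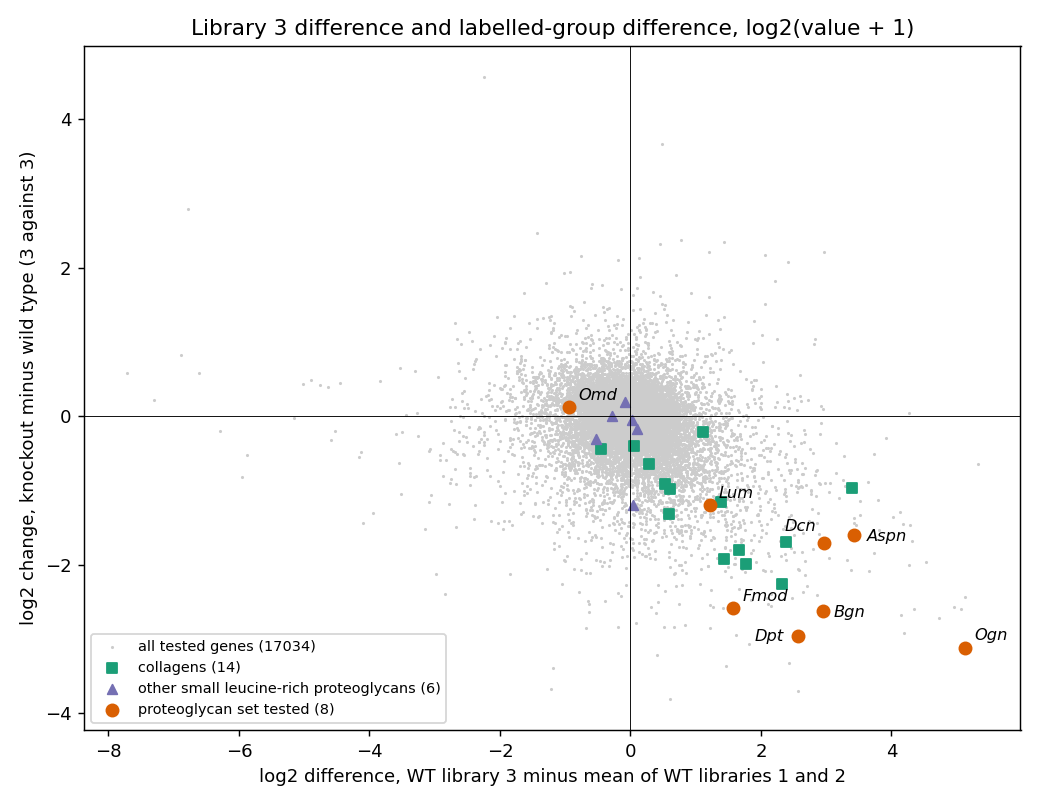
Each point is a gene: on the x axis the log2 difference of library 3 from libraries 1 and 2 labelled wild type, on the y axis the log2 change between labelled groups, both on log2(value + 1). The axes share library 3, so a downward slope is built in; Ogn lies farthest right at 5.13, Omd at -0.94, and the 6 other tested small leucine-rich proteoglycans (triangles) between -0.53 and 0.10.

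Per kilobase of the principal annotated transcript, which allows levels to be compared between genes, Lum led in every library. In libraries 1 and 2 labelled wild type the mean normalized counts per kilobase were 3826 for Lum, 967 for Dcn, 118 for Ogn, 66.8 for Fmod, 27.9 for Aspn, 23.6 for Bgn, 13.8 for Omd, 10.3 for Dpt and 1.32 for Prelp. The ranges of Aspn (24.2 and 31.6) and Bgn (28.1 and 19.1) overlapped, so their order is not settled. In library 3 labelled wild type Ogn, at 4146 per kilobase, came nearer to Dcn at 7552 and Lum at 8897, and Aspn at 302 passed Fmod at 200. In the libraries labelled knockout Lum was at 1052 to 3644, Dcn at 291 to 831 and Ogn at 27.0 to 76.2 per kilobase, and the ranges of Fmod (8.88 to 28.01), Aspn (15.7 to 26.1) and Omd (9.54 to 15.8) overlapped. With all annotated exons merged, the lengths of Dcn and Bgn grow from 1758 to 5838 and from 2419 to 6099 bases, which puts Ogn (4146) above Dcn (2274) in library 3 and Bgn (9.37) below Omd and Dpt in libraries 1 and 2.

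Of the 9 genes, 7 lie near other family members on chromosomes 13, 10 and 1, while Bgn and Dpt had none within 200 kb. On chromosome 13 Ecm2, Aspn, Omd and Ogn follow each other on the plus strand inside the span of Cenpp, a centromere protein gene on the opposite strand. In library 3 labelled wild type Aspn and Ogn differed by 3.43 and 5.13 on the log2 scale from libraries 1 and 2, while Omd, which lies 14897 bases from Aspn and 15224 bases from Ogn, differed by -0.94. Ecm2, a matrix gene with leucine-rich repeats, differed by 0.10 and Cenpp by 0.09. The annotated exons of Aspn and Cenpp share 7 bases, and Ogn and Omd share none with Cenpp.

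The sequences before the starts of Aspn, Omd and Ogn are shown because these 3 neighbours on chromosome 13 gave differences of opposite sign in library 3. The difference of Omd rested on only 17, 52 and 20 reads in libraries 1, 2 and 3 labelled wild type. They are the 250 bases before each RefSeq start in GRCm38.p6, plus strand, 5′ to 3′, from a RefSeq table that held 7 of the 9 genes. Capitals mark matches on either strand to 1 of 6 motifs. These were the TATA box, spelled TATAAA, and the box named after its letters CCAAT. The others were the GC box with the letters GGGCGG, the site of the AP-1 factors with TGANTCA, that of the TEAD factors with GGAATG and that of the RUNX factors with TGTGGT.
Aspn, chr13:49544193-49544442: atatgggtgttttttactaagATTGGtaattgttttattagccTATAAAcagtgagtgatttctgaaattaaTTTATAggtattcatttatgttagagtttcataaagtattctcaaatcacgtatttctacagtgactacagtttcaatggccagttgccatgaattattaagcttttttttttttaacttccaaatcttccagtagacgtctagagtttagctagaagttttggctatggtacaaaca
Omd, chr13:49582212-49582461: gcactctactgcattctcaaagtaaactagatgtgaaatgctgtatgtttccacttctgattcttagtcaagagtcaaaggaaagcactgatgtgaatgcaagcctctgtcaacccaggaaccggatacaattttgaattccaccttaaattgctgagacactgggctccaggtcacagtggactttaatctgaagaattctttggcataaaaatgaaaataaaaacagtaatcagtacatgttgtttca
Ogn, chr13:49607765-49608014: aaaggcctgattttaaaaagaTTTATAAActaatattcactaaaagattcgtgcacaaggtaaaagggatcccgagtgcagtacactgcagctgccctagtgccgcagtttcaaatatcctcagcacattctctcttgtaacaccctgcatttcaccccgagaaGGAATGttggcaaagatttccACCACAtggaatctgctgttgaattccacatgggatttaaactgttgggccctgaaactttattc

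In the Ogn sequence the matches were TATAAA on both strands, overlapping, at 229 and 227 bases before the start, GGAATG at 86 and TGTGGT, on the reverse strand, at 65. The Aspn sequence held CCAAT on the reverse strand at 229 bases and TATAAA at 207 and, on the reverse strand, at 178. None of the 6 motifs was found in the Omd window. Over 32851 such windows of the same length, 12.4% held TATAAA, 33.8% CCAAT, 32.7% GGGCGG, 6.75% TGANTCA, 12.6% GGAATG and 14.0% TGTGGT, so each match is a common one and a description of letters only. The windows of Aspn, Omd and Ogn had 30.0%, 38.4% and 42.0% G and C.

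On chromosome 10 Dcn and Lum lie 46985 bases apart on the plus strand, followed by Kera, the cornea-restricted keratocan gene, and Epyc, the cartilage epiphycan gene. Dcn and Lum were the 2 most abundant genes of the set, whereas Kera was at 0 to 3.58 and Epyc at 0 to 3.70 normalized counts, on at most 5 reads in any library. On chromosome 1 Fmod lies 115840 bases from Prelp, which in turn lies 2305 bases from Optc, the opticin gene. Optc was at 13.3, 14.3 and 14.1 in libraries labelled wild type, against 5.19, 6.26 and 5.18 in those labelled knockout. Its values labelled knockout were all lower (log2 change -1.19, SE 0.33, on 3 to 22 reads), and library 3 labelled wild type did not stand apart. Like Dpt, Optc passed the filter only through the libraries labelled wild type, so it had to be lower in the others. An annotated antisense gene shares 350 exon bases with Prelp and was at most at 0.65.

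**Figure D3:**
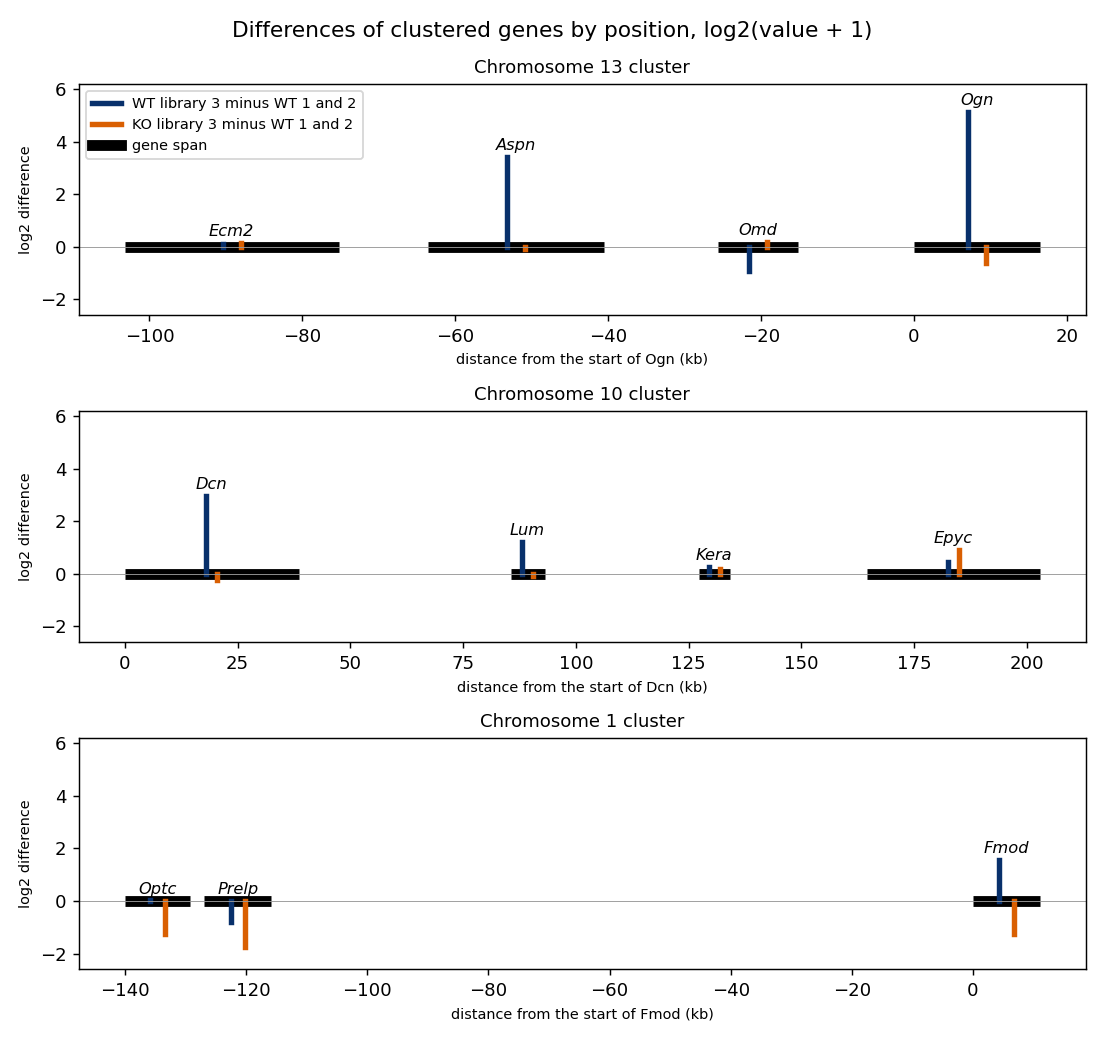
Log2 differences on log2(value + 1) at the positions of the clustered genes, in kilobases from the start of Ogn, Dcn or Fmod: dark blue bars for library 3 labelled wild type and orange bars for library 3 labelled knockout, each against libraries 1 and 2 labelled wild type, with black bars for gene spans. The dark blue bars of Ogn (5.13) and Aspn (3.43) stand on either side of Omd (-0.94). The bars of Omd rest on 17 to 52 reads per library, and those of Kera, Epyc, Prelp and Optc on 22 reads or fewer.

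Within 200 kb of any of the 9 genes lay 40 other listed genes, of which 17 were tested, 8 with higher and 9 with lower means under the knockout label. Here and in the lists below, such means are of log2(value + 1). In limma 0 of the 17 were called, and 5 were under an unadjusted p of 0.05, as were 14.2% of all tested genes in either direction. That is the share to set beside each such count below. Of these 17, 1 was at least 2-fold higher in library 3 labelled wild type. It was Adora1, an adenosine receptor gene, at 26.6, 28.7 and 58.1 in libraries labelled wild type, against 46.7, 106 and 101.5 in those labelled knockout. With scaling by library totals 0 of the 17 reached 2-fold. Atp2b4, a plasma membrane calcium pump gene near Prelp, had a log2 change of -1.36 (SE 0.34), and Dusp9, a phosphatase gene near Bgn, one of 0.77 (SE 0.26).

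The rest of the family did not stand out in library 3. Of 10 other small leucine-rich proteoglycan genes 6 were tested, 1 with a higher and 5 with a lower mean under the knockout label (median change -0.12). In limma 0 were called over all genes, and 1, Optc, was under an unadjusted p of 0.05. Optc had passed the filter only through the libraries labelled wild type. None of these 6 was 2-fold higher in library 3 labelled wild type. Tsku, the tsukushi gene, was the most abundant, at 875, 860 and 816 in libraries labelled wild type, against 1175, 744 and 1049 in those labelled knockout. Ecm2 ranged from 48.4 to 67.8, Chad (chondroadherin) from 13.04 to 18.3, Chadl from 21.4 to 46.5 and Podnl1 from 8.94 to 16.3. Podn (podocan), at 2.96 to 11.6, and Nyx (nyctalopin), at 6.26 to 15.7, did not pass the filter, nor did Kera and Epyc.

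Among enzymes that build the glycosaminoglycan chains the list medians lay near 0 and single genes did not. Of 21 tested chondroitin and dermatan sulfate genes 11 had a higher and 10 a lower mean under the knockout label (8 and 13 with scaling by library totals, 9 and 12 without library 3 labelled wild type), with a median change of 0.03. Chst3, a chondroitin sulfotransferase gene, was at 23.2, 36.5 and 81.7 in libraries labelled wild type and 10.4, 17.0 and 8.15 in those labelled knockout, and was the 1 gene of this list at least 2-fold higher in library 3. The chain polymerase genes Chsy3 and Chsy1 had log2 changes of 0.51 (SE 0.15) and 0.36 (SE 0.13), and Chst15 one of 0.56 (SE 0.21). Of 8 tested keratan sulfate genes 3 had a higher and 5 a lower mean, with a median change of -0.01. That split was 1 and 7 with scaling by library totals, 2 and 6 by upper quartiles, and 5 and 3 without library 3 labelled wild type. Chst1, the keratan sulfate sulfotransferase gene, was at 28.2, 41.7 and 42.4 against 8.65, 18.8 and 19.3 (log2 change -1.27, SE 0.39). In limma, calls numbered 0 in either list, and 6 and 2 genes were under an unadjusted p of 0.05.

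Collagens are the main binding partners. Of 14 tested collagen genes (fibril-forming, fibril-associated and type VI) 14 had a lower mean under the knockout label, with a median change of -1.07, and 8 were at least 2-fold higher in library 3 labelled wild type. Without that library 12 were lower and 2, Col11a1 and Col12a1, higher, with a median of -0.76. Again 0 were called by limma, and 8 were under an unadjusted p of 0.05. Col1a2 was at 48014, 47685 and 129358 in libraries labelled wild type, against 12910, 24814 and 17051 in those labelled knockout. Col6a3, of the type VI microfibrils, was at 7037, 7315 and 22781 against 2777, 2371 and 4159. Library 3 differed less for Col1a1 and Col3a1, by 0.58 and 0.61 on the log2 scale. Col12a1, a fibril-associated collagen chosen after its values were seen, was at 1442, 1389 and 14886 in libraries labelled wild type, against 1353, 1619 and 1814 in those labelled knockout, a pattern like that of Aspn.

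Growth factors and receptors tied to the proteoglycans were mixed. Of 12 tested TGF-beta and BMP genes 4 were higher and 8 lower, with 0 called by limma and 7 at an unadjusted p under 0.05. Tgfb3 was at 747, 779 and 1678 in libraries labelled wild type, against 285, 265 and 444 in those labelled knockout (log2 change -1.62, SE 0.35). Tgfb2 had a log2 change of -0.54 (SE 0.13) and was lowest in library 3 among those labelled wild type (4287, 4436 and 3570), and the same held for the latent TGF-beta binding protein gene Ltbp2 (-1.11, SE 0.29). Tgfbr1 had a change of 0.33 (SE 0.10). Of 13 receptor genes 6 were higher and 7 lower, with 0 called and 3 at an unadjusted p under 0.05. Egfr, a receptor that decorin binds, was at 2634, 2610 and 3679 in libraries labelled wild type, against 763, 1643 and 1775 in those labelled knockout. Met, another decorin receptor gene, was at 204, 190 and 529 against 123, 164 and 80.0.

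The list of proteases linked to these proteins also holds the protease enhancer genes Pcolce and Pcolce2. Of its 9 tested genes 3 were higher and 6 lower, and 0 had an unadjusted p under 0.05. Of the 9, 3 were at least 2-fold higher in library 3 labelled wild type, among them Adamts4, an aggrecanase gene (131, 118 and 281), and Tll1, a tolloid-like protease gene (121, 134 and 280). Large and membrane proteoglycans were split evenly, with 9 higher and 9 lower of 18 tested, 0 called and 6 at an unadjusted p under 0.05. Hapln1, the hyaluronan link protein gene, was at 1157, 1236 and 950 against 2919, 1654 and 2515 (log2 change 1.05, SE 0.22), while Cspg4, Sdc4 and Gpc6 had changes of -1.13 (SE 0.29), -0.59 (SE 0.15) and -0.59 (SE 0.17).

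Markers of other cell types also set library 3 labelled wild type apart. The 18 fibroblast and mesenchyme markers summed to 657742 there, against 487238 and 477644 in libraries 1 and 2 and 259111 to 368621 in those labelled knockout. Col1a1, Col1a2 and Col3a1 stand in this list and in that of the collagens, and without them the 15 other markers summed to 195892, 191641 and 162321 against 127573, 187825 and 162933, with library 3 labelled wild type below libraries 1 and 2. Within the list Fap, Thy1 (4.98, 5.21 and 50.3), Ly6a, Prrx1, Col1a2 and S100a4 were at least 2-fold higher in library 3 (Thy1 and Ly6a did not pass the filter), whereas Pdgfra (14484, 14659 and 8389), Pdgfrb, Twist2 and Fn1, among others, were lower. The 4 leukocyte markers summed to 549, 534 and 2621 in libraries labelled wild type and to 138, 2494 and 293 in those labelled knockout. In that sum library 2 labelled knockout was nearly level with library 3 labelled wild type. The 9 cardiomyocyte markers summed to 32436, 30846 and 11613 against 14894, 27725 and 38854, so library 1 labelled knockout, which had the smallest sum of the proteoglycan set, was low in them as well. The 5 endothelium markers were at 2899 in library 3 and 12665 and 12637 in libraries 1 and 2, with 7209 to 10237 in the libraries labelled knockout.

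Tendon and cartilage markers summed to 1568 in library 3 labelled wild type and 563 to 926 elsewhere, and bone markers to 2026 and 557 to 1007, in library 3 mostly Spp1. Tnmd, Bglap and Ibsp, which define mature tendon and bone, were at 3.93 or less in all 6 libraries. Smooth muscle markers summed to 63098 in library 3 and 49291 to 59375 elsewhere, epicardium markers to 4190 and 1391 to 2820, and valve mesenchyme markers to 33129 and 55799 to 74151. The sums of sinoatrial markers were 7194 and 3424 to 3919, of epithelium and endoderm 14055 and 4891 to 15151, and of neural markers 5515 and 2638 to 4028. Most of the sinoatrial sum of library 3 was Smoc2 (1859, 1756 and 5712 under the wild-type label, 445 to 1730 under the knockout label). Against libraries 1 and 2, 3 of the 8 sinoatrial markers were higher in library 3 and 5 lower, with a median log2 difference of -0.21. By at least 2-fold, 1 was higher and 3 were lower. No marker of any list was at 0 in all 6 libraries. The part of these cell types in the values of the proteoglycan set was not tested.

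**Figure D4:**
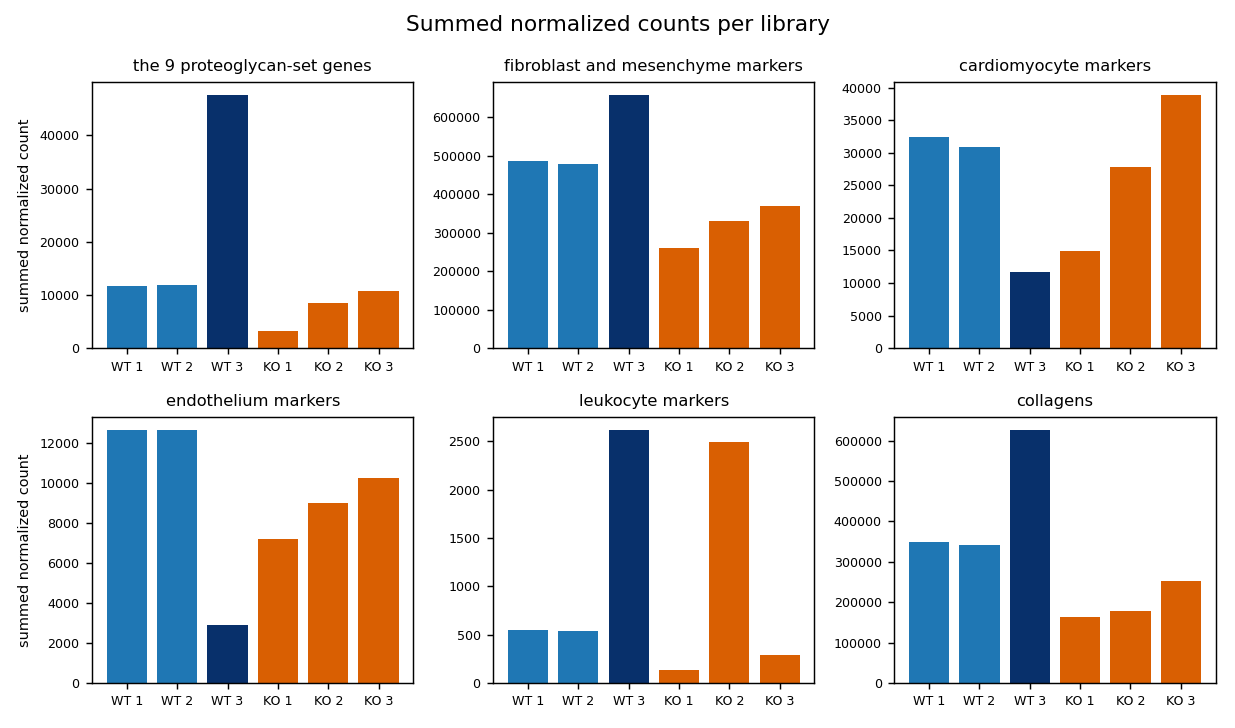
Bars give summed normalized counts per library, as labelled (WT, blue, library 3 dark blue; KO, orange), for the 9 genes, for 4 cell type marker lists and for the collagen list, each on its own axis from 0. The 9 genes reach 47590 in library 3 labelled wild type, where cardiomyocyte (11613) and endothelium (2899) markers are lowest and leukocyte markers (2621) highest.

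Genes with the pattern most like each of the set were found by Pearson r of log2(value + 1) over the 6 libraries, among tested genes ranging over at least 1 on that scale. With 2 nearly alike libraries and 1 far apart, high values of r are common: 170 of 5687 genes exceeded 0.95 with Ogn and 86 with Dpt, so the names are a description. Nearest to Dcn was Lox, the lysyl oxidase gene that cross-links collagen (r = 0.9996), at 500, 496 and 10142 in libraries labelled wild type and 76.1, 403 and 365 in those labelled knockout. Nearest to Ogn were the cadherin gene Cdh13 (0.998), Serpinb9 and Cdkn2b. Gm10143, Stab1 and Smoc2 were nearest to Lum, Nmi, Col16a1 and Snhg18 to Bgn, and Olfml3, A230050P20Rik and Col20a1 to Fmod. Aspn was nearest to Adrb3, to Mgp, the matrix Gla protein gene (18.3, 17.0 and 619 against 8.65, 5.36 and 14.8), and to B4galt1, an enzyme of keratan sulfate chains. Dpt was nearest to Cped1, Gpr85 and Pcdhb19. Omd was nearest to Gm18014, Bcl9l and D630008O14Rik, all lower in library 3.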

How the data were processed

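Each deposited table gives 1 value per gene for 30631 genes. The submitters' processing notes name CASAVA (1.8.2), BWA, HTSeq and DESeq2 (1.14.0) without roles, and the mm10 build. Strand use is not given in the sources used here. As the values show, the authors' deposited numbers are gene counts divided by 1 size factor per library: 100% of them were whole multiples of 1 step within 0.1 reads, which gave the read numbers printed. Positions and lengths came from GENCODE M21 (GRCm38), which held 30497 of the IDs.

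The main analysis took log2(value + 1), a scale that understates changes of low genes, to limma 3.58.1 (R 4.3.3). Labelled group was the only term, with a trended prior and two-sided p-values adjusted by Benjamini-Hochberg over the 17034 genes that reached 10 in 3 or more libraries. The fit was tested on simulated data. No simulated library stood apart as library 3 labelled wild type does here, so that test does not cover such a library. Alternatives covered pseudocount, filter, scaling, left-out libraries, a block for the Diff9 libraries and limma voom on recovered reads. Another took the mean of libraries 1 and 2 labelled wild type as 1 sample. The genes of the set and all lists were chosen with earlier results of these data known. Named from the lists were all other small leucine-rich proteoglycans and up to 4 tested genes per list with the lowest p, besides the 3 genes most like each member. Col12a1, Slc26a7 and the single cell type markers were named after their values were seen.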

Additional observations from a re-analysis of the deposited data

How the results depend on the processing

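In limma, 0 genes were called, 2411 of 17034 having an unadjusted p under 0.05. The count was 0 to 51 when each library was left out in turn, the 51 without library 2 labelled knockout, 2 without the filter, and 303 in limma voom with sample quality weights (0 without weights); none of the tested members was among these calls. The median log2 change of the 8 tested members was -2.15, -2.56 to -1.10 with a library left out (nearest 0 without library 3 labelled wild type), -1.01 with sample quality weights, which gave that library a weight of 0.206, and -0.43 in the Diff9 libraries alone, a comparison chosen after seeing the data. The sign of Omd changed without library 3 labelled wild type (-0.19), without library 3 labelled knockout (-0.06) and with quality weights (-0.12). The block for the Diff9 libraries gave a median of -2.37. With the mean of libraries 1 and 2 labelled wild type as 1 sample the median was -2.53. Of the 9 members, 6 did not overlap between groups, beside 4023 of the 17034 tested genes, counted in either direction. With a library left out, 6 or 7 members did not overlap. Fewer libraries make such a separation easier for any gene, and the share over all genes was not counted there.

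The median difference of library 3 labelled wild type was 2.75. It was 2.53 and 2.85 against library 1 or 2 alone, 2.43 with a pseudocount of 10, 2.69 with scaling by library totals and 2.56 over all 9 members. The gene lists without library 3 labelled wild type, and lengths from merged exons, were added after seeing the data. Planned count tests with edgeR and DESeq2 were not run. Read depth limits Prelp, Dpt, Omd and Bgn, and 1 library cannot show how often such a difference recurs.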
